A study of Mus musculus with 22 samples.

Results

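The genes of MHC class II antigen presentation were examined in RNA sequencing of thymus, cerebrum and cerebellum from Tol and WT mice. The members are 10 genes taken by name from the 34585 entries of the deposited tables: H2-Aa, H2-Ab1, H2-Eb1, Cd74, Ciita, H2-DMa, H2-DMb1, H2-Oa, H2-Ob and Ctss. Each of the 10 matched 1 row through its Ensembl identifier. The mice were C57BL/6; methods give 7 to 14 weeks as the age of mice used in experiments, and no age per library. Tol mice are heterozygous for the Tol transgene, a long open reading frame of scrambled reporter protein fragments driven by the CAG promoter, which is active in most cell types, and inserted 3′ of Col1a1 in a C57BL/6J embryonic stem cell line by cassette exchange; WT mice are littermates without it. There were 4 Tol and 4 WT libraries of thymus, 4 and 4 of cerebrum, and 2 Tol and 4 WT libraries of cerebellum. All came from poly(A) RNA of frozen whole tissue, so that fewer cells of a type and less RNA per cell cannot be told apart in any value given here.

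MHC class II molecules present peptides from the endosomal pathway to CD4+ T cells. The chains assemble in the endoplasmic reticulum on the invariant chain, which is then cut away by proteases in endosomes, and the remaining fragment is exchanged for a peptide. The genes are transcribed together in dendritic cells, B cells and thymic epithelium under the transactivator Ciita, and thymocytes are selected on the class II molecules of the thymus; in healthy brain most cells, microglia included, are known to express them at a low level.

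Library totals ranged from 14543698 to 34776973 estimated counts (median 21577753.5). The transgene was read 448 to 4628 times in the 10 Tol libraries and at most 2 times in the 12 WT libraries. Levels are given as CPM, counts relative to library size after TMM scaling over all 22 libraries, and 3 counts, below which a gene was treated as not detectable, corresponded to 0.0757 to 0.233 CPM; this floor covers counting error only. The study counts its replicates as mice, but the labels tie no library to an animal, and the p-values measure the spread between these libraries.

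Some libraries stood apart from their labels. Cerebellum Tol 2 had 13.0 CPM of Gabra6, a marker of cerebellar granule cells, against 329 to 806 CPM in the other 5 cerebella, and 10.7 CPM of the Purkinje cell gene Pcp2 against 114 to 290 CPM. Cerebellum WT 2 was the lowest of the others, with 329 CPM of Gabra6 and 114 CPM of Pcp2. Among the cerebra, WT 3 and Tol 4 had 41.2 and 19.0 CPM of Cd4 against 0.651 to 2.92 CPM in the other 6, while Tol 2 and WT 4 had 5.10 and 5.23 CPM of Gabra6 against at most 1.16 CPM. Values without these libraries are given where a call changed.

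All 10 members were higher in WT thymus than in WT cerebrum or WT cerebellum, from 2.28-fold for Ctss to 697-fold for H2-Ab1 against cerebrum. In thymus Cd74 led, and in both brain regions Ctss led, with the classical chains between 0.361 and 5.47 CPM. In Tol against WT mice, no member passed an adjusted p of 0.05 in any organ. The thymus values nearest to it were a lower Ciita and a higher H2-Oa.

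**Figure D1:**
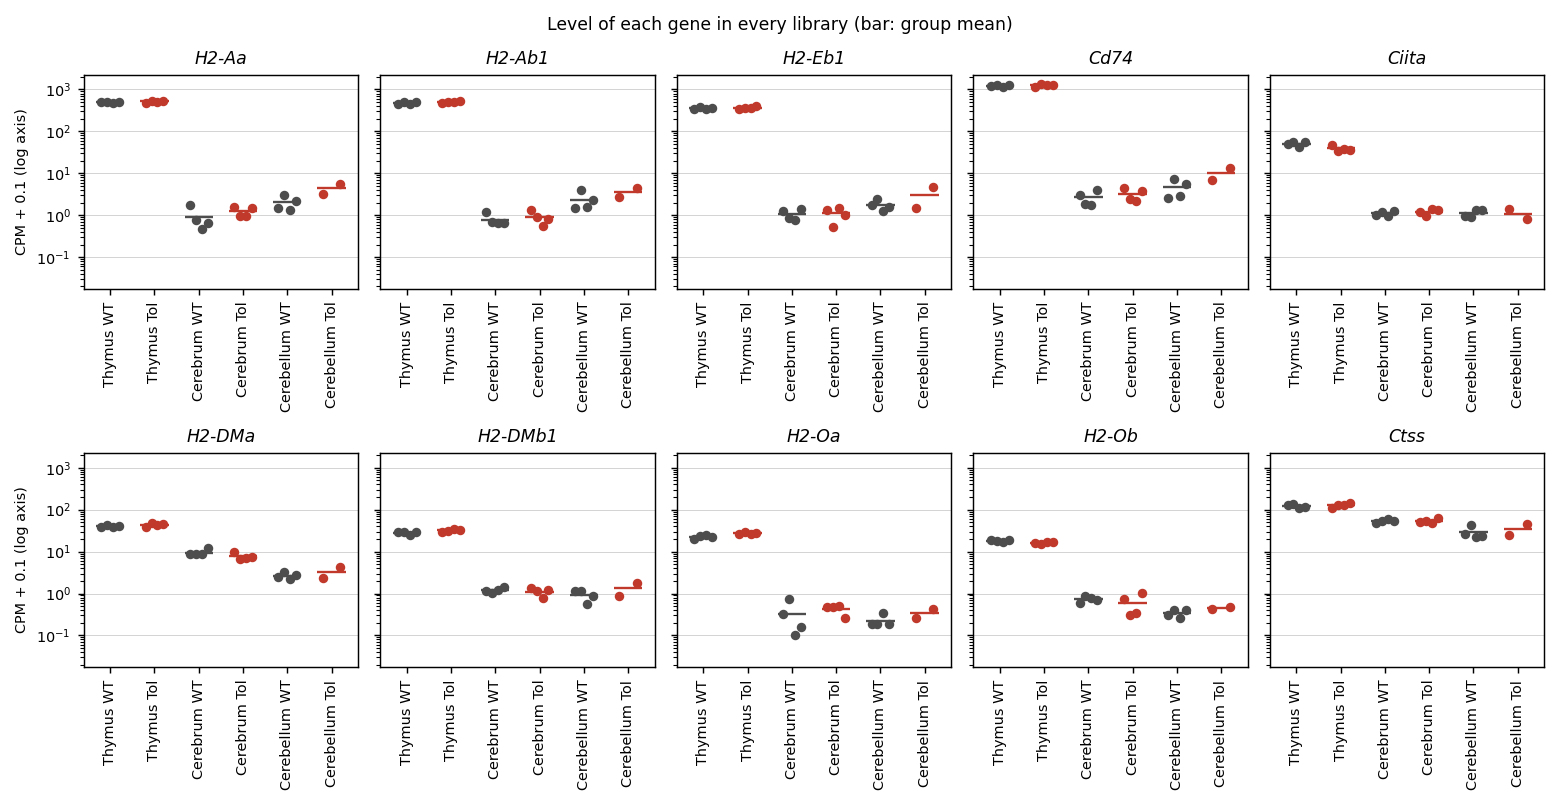
Level of each member in the 22 libraries, as CPM + 0.1 on a log axis, by organ and genotype (grey WT, red Tol; points are libraries, bars are group means). The thymus points lie above all brain points of the same gene in each of the 10 panels, and the gap is smallest for Ctss.

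The class II genes share promoter elements known as the X and Y boxes, and the promoters at hand are shown here. Any link between these boxes and the levels by organ was not tested. RefSeq promoter windows, from 250 bases before to 50 bases after the start on GRCm38.p6, were at hand for 7 members: H2-Aa, H2-Eb1, H2-DMa, H2-DMb1, H2-Oa, H2-Ob and Ctss, with 2 windows for H2-DMa. H2-Ab1, Cd74 and Ciita had no entry. The Y box core ATTGG and the X1 form (AG, 2 free bases, AC, 1 free base, G, 1 free base, TG) were searched on both strands, and no match of one overlapped a match of the other in these windows. The windows with a match near the start are printed 5′ to 3′ on the strand of the gene, with matches in capitals (CCAAT is the core on the opposite strand). That of Ctss, which held no match, is printed last.
H2-Aa (chr17:34287774-34288073, minus strand): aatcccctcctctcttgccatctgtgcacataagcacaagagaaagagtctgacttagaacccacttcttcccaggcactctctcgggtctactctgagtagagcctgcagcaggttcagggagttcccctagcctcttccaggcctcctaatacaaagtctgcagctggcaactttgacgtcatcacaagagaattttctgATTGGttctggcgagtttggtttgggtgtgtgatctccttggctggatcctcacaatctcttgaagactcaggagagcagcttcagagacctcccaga
H2-Eb1 (chr17:34305617-34305916, plus strand): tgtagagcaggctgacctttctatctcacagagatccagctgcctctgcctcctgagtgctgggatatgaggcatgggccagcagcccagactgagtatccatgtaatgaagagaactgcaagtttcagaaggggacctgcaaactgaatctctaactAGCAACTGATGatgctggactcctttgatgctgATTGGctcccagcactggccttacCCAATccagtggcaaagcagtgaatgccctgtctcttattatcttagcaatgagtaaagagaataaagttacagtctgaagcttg
H2-DMb1 (chr17:34152941-34153240, plus strand): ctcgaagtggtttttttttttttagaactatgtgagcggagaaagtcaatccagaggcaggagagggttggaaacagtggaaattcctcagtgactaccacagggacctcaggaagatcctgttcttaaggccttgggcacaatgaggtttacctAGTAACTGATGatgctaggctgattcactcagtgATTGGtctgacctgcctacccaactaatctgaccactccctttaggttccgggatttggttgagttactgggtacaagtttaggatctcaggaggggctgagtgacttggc
H2-Oa (chr17:34092129-34092428, plus strand): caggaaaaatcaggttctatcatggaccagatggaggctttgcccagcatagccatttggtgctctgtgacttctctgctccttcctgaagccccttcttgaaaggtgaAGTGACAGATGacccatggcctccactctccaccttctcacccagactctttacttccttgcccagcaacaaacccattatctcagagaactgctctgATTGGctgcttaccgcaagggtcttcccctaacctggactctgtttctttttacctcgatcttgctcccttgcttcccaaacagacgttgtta
H2-Ob (chr17:34238655-34238954, plus strand): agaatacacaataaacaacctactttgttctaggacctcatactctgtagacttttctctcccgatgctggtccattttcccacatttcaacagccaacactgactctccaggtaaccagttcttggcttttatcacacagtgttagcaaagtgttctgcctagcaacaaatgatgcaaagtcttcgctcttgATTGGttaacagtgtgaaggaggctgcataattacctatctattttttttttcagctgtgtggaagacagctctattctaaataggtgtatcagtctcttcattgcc
Ctss (chr3:95526536-95526835, plus strand): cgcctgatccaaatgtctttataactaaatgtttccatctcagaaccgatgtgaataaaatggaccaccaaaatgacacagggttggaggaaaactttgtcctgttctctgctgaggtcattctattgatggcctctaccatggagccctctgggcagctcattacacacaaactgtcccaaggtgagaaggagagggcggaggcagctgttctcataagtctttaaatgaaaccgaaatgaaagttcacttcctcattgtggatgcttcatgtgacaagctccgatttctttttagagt

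The Y box core stood 48 bases before the start in H2-Aa, 59 in H2-Eb1, 61 in H2-DMb1, 43 in H2-Oa and 57 in H2-Ob, each time on the strand of the gene. H2-Eb1 had another on the opposite strand, 35 bases before the start, and 1 window of H2-DMa had it 198 bases before. The core alone is common and was found in 37.4% of the 32851 windows of this length in the table. The X1 form stood 92 bases before the start in H2-Eb1, 95 in H2-DMb1 and 141 in H2-Oa and was found in 4.61% of windows. An X1 form that began at most 40 bases before a Y box core was found in 71 windows, 0.216% of the table, and H2-Eb1 and H2-DMb1 were among them. The X1 form of H2-Oa did not begin within 40 bases before a Y box core. The windows of H2-Aa and H2-Ob held no X1 form. The window of Ctss and the other window of H2-DMa held neither form. These absences say only that the letters searched are not in these windows.

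Of the members, 7 lie on chromosome 17 of GRCm38 between 34092340 (H2-Oa) and 34316674 (H2-Eb1), Ciita lies at chr16:10480059-10528418, Ctss at chr3:95526786-95556403 and Cd74 at chr18:60803848-60812652. Levels between genes are compared per kb of merged exons on this scale only. Cd74, the invariant chain, was at 722 ± 44.4 CPM per kb (SD, n = 4), above H2-Ab1 at 186 ± 11.5 CPM per kb, the β chain of I-A. H2-Eb1, the β chain of I-E, was at 184 ± 8.65 CPM per kb, and its range overlapped that of H2-Ab1. H2-Aa, the α chain of I-A, followed at 131 ± 4.51 CPM per kb, and Ctss, the protease that makes the last cut in the invariant chain in most antigen-presenting cells, at 89.97 ± 9.51 CPM per kb. H2-DMb1 (16.8 ± 1.33 CPM per kb) and H2-Oa (16.0 ± 1.35 CPM per kb) overlapped each other, and H2-DMa (11.7 ± 0.566 CPM per kb), Ciita (5.36 ± 0.610 CPM per kb) and H2-Ob (3.37 ± 0.159 CPM per kb) each lay apart from their neighbours in this order. The 3 classical chains and Cd74 together took 0.286% to 0.330% of all counts of a WT thymus library.

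In the brain the order was another. In WT cerebrum Ctss was first at 40.3 ± 3.94 CPM per kb (SD, n = 4), followed by H2-DMa at 2.69 ± 0.479 CPM per kb and Cd74 at 1.54 ± 0.662 CPM per kb, and these 3 did not overlap. From H2-DMb1 downwards (0.644 ± 0.0989 CPM per kb) every gene overlapped its neighbour, down to Ciita at 0.105 ± 0.0147 CPM per kb. In WT cerebellum Ctss was at 21.0 ± 6.93 and Cd74 at 2.68 ± 1.33 CPM per kb, and from Cd74 to H2-DMb1 each range overlapped the next. The classical chains and Cd74 took 0.000271% to 0.000600% of the counts of a WT cerebrum library and 0.000629% to 0.00161% of a WT cerebellum library.

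The classical chains and Cd74 had the highest folds of thymus over both brain regions among the members. H2-Ab1 was 458, 513, 450 and 494 CPM in WT thymi 1 to 4 and 1.08, 0.586, 0.542 and 0.535 CPM in WT cerebra 1 to 4. In WT cerebella 1 to 4 it was 1.37, 3.93, 1.44 and 2.20 CPM. The thymus values did not overlap those of either brain region. H2-Ab1 was 697-fold higher in thymus than in cerebrum (log2 fold change 9.44, SE 0.34, adjusted p = 3.16e-11, edgeR) and 220.5-fold higher than in cerebellum (log2 fold change 7.78, SE 0.30, adjusted p = 5.98e-11, edgeR). H2-Aa was 475 to 515 CPM in WT thymus, and its folds were 621 and 266. H2-Eb1 was 339.9 to 379.6 CPM there, and its folds were 371 and 222.

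H2-Ea, the α chain that pairs with H2-Eb1 in strains that make I-E and that C57BL/6 mice are known not to express, had at most 2 counts in any of the 22 libraries, below the detection floor, while H2-Eb1 was 339.9 to 395 CPM in the thymi. H2-DMb2 and H2-Eb2, the remaining class II genes listed, were 43.5 to 47.3 CPM and 19.6 to 23.7 CPM in WT thymus, and both were higher there than in cerebrum and in cerebellum at an adjusted p under 0.05. H2-DMb2 is a near-identical neighbour of H2-DMb1, and the split of reads between them is uncertain.

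Cd74, a chaperone of class II that also keeps the peptide groove closed, was 1189, 1294, 1121 and 1245 CPM in WT thymi 1 to 4. In WT cerebra 1 to 4 it was 2.97, 1.76, 1.63 and 3.98 CPM. In WT cerebella 1 to 4 it was 2.52, 7.21, 2.85 and 5.44 CPM. Thymus was far above both, 474-fold over cerebrum and 276-fold over cerebellum (adjusted p = 2.90e-10 and 4.54e-10, edgeR), while the brain regions overlapped. Of the exon bases of Cd74, 12 are shared with the microRNA gene Mir5107.

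Ciita, the transactivator that switches the class II genes on, was 50.4, 56.3, 43.2 and 54.5 CPM in WT thymi 1 to 4, and between 0.843 and 1.13 CPM in WT cerebrum and 0.821 and 1.25 CPM in WT cerebellum. The thymus was 52.0-fold over cerebrum and 50.5-fold over cerebellum (adjusted p = 4.73e-12 and 4.34e-12, edgeR). Its brain values were 14 to 32 counts a library in WT mice, and 329 of its exon bases lie opposite exons of Dexi. Dexi was 19.7 to 21.8 CPM in WT thymus and 26.1 to 43.2 CPM in WT cerebrum. Whether the counting used the strand is not given in the sources used here, so the part of Dexi reads in the low brain values of Ciita was not tested.

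H2-DMa and H2-DMb1 encode the chains of the peptide exchanger H2-M. H2-DMa was 38.5 to 42.5 CPM in WT thymus and 8.48, 8.46, 8.43 and 11.8 CPM in WT cerebra 1 to 4. In WT cerebella it was 2.07 to 3.20 CPM. It was 4.44-fold higher in thymus than in cerebrum and 16.2-fold higher than in cerebellum (adjusted p = 1.46e-08 and 8.41e-11, edgeR), and the 3 groups did not overlap. H2-DMb1, at 25.0 to 29.9 CPM in WT thymus, was 0.911 to 1.31 CPM in WT cerebrum and 0.468 to 1.08 CPM in WT cerebellum, with folds of 26.4 and 34.6. H2-DMa shares 360 exon bases with Brd2 on the other strand. Brd2 was 376 to 412 CPM in WT thymus, 192 to 214 CPM in WT cerebrum and 188 to 243 CPM in WT cerebellum. The part of Brd2 reads in the H2-DMa values was not tested.

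H2-Oa and H2-Ob form H2-O, which inhibits H2-M and is known mainly from B cells and thymic epithelium. H2-Oa was 20.3, 23.5, 24.6 and 21.7 CPM in WT thymi 1 to 4, and in the brain its counts were 4, 10, 0 and 1 in WT cerebra 1 to 4 and 2, 2, 6 and 2 in WT cerebella 1 to 4. Most of the latter are under 3 counts, where it was not detectable at this depth. H2-Ob was 19.2, 17.8, 17.2 and 18.5 CPM in WT thymi 1 to 4, 0.486 to 0.781 CPM in WT cerebrum and 0.156 to 0.302 CPM in WT cerebellum. Its folds of thymus over these regions were 29.3 and 75.4 (adjusted p = 3.77e-11 and 9.58e-12, edgeR).

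Ctss differed least. It was 130, 135, 107 and 117 CPM in WT thymi 1 to 4, and 48.4, 54.1, 61.4 and 55.1 CPM in WT cerebra 1 to 4. In WT cerebella it was 25.5, 42.4, 21.9 and 24.1 CPM, with the library that stood apart, WT 2, the highest. The 3 groups did not overlap, and thymus was 2.28-fold over cerebrum and 4.41-fold over cerebellum (adjusted p = 4.43e-05 and 2.14e-07, edgeR).

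In all, 10 of 10 members were called higher in thymus than in cerebrum, where 43.4% of all 17413 genes tested were, and 10 of 10 than in cerebellum, where 41.8% of genes were. All 10 lay apart from each brain region on the higher side, as did 42% and 39.7% of all genes. The median log2 fold change of the members was 6.17 and 6.85, and that of all genes 0.06 and -0.01. Markers of B cells and thymic epithelium, which carry these genes, moved with the organ: 7 of 7 B cell markers and 8 of 8 thymic epithelium markers were called higher in thymus than in either brain region. The dendritic cell markers went both ways: of 7, 5 were called higher and 1 (Zbtb46) lower in thymus than in cerebrum, and 5 higher and 2 (Flt3 and Zbtb46) lower than in cerebellum. The summed level of the thymic epithelium markers was 1425 to 1582 CPM in WT thymus, 5.41 to 6.77 CPM in WT cerebrum and 5.73 to 7.64 CPM in WT cerebellum. That of the B cell markers was 68.7 to 96.4, 1.84 to 2.08 and 1.91 to 3.42 CPM in the same order. That of the dendritic cell markers was 67.7 to 86.9, 33.8 to 43.3 and 82.9 to 151 CPM, so that it did not follow the members in cerebellum. The part of each cell type in the member values was not tested.

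Between the brain regions the members went in both directions. The classical chains were lower in WT cerebrum than in WT cerebellum: H2-Ab1 by a log2 fold change of -1.66 (SE 0.38, adjusted p = 0.00301, edgeR), H2-Aa by -1.23 (SE 0.39, adjusted p = 0.0187, edgeR) and H2-Eb1 by -0.74 (SE 0.24, adjusted p = 0.0215, edgeR). H2-Ab1 did not overlap between the regions, while WT cerebrum 1 (1.62 CPM of H2-Aa) lay within the cerebellum range of 1.25 to 2.94 CPM. H2-DMa was higher in cerebrum (log2 fold change 1.87, SE 0.16, adjusted p = 1.38e-06, edgeR), as were H2-Ob (1.36, SE 0.23, adjusted p = 0.000651, edgeR) and Ctss (0.95, SE 0.18, adjusted p = 0.000920, edgeR), and none of these 3 overlapped. Cd74 (-0.78, adjusted p = 0.0879, edgeR), Ciita (-0.04), H2-DMb1 (0.39) and H2-Oa (0.82) did not pass. Thus 3 members were called higher and 3 lower, where 24.6% and 26.4% of all genes were, and 4 did not overlap, where 43.4% of all genes did not.

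Without cerebellum WT 2, the library low in cerebellar markers and high in Ctss, the same 6 members passed, with H2-Ab1 at -1.24, H2-Aa at -0.94 (adjusted p = 0.0481, edgeR) and H2-Eb1 at -0.53 (adjusted p = 0.0494, edgeR). Without cerebrum WT 3, the library high in Cd4, H2-Aa (-0.98, adjusted p = 0.0553, edgeR) and H2-Eb1 (-0.59, adjusted p = 0.0689, edgeR) did not pass. H2-Aa also did not pass without cerebrum WT 4 (-1.08, adjusted p = 0.0557, edgeR), nor H2-Eb1 without cerebrum WT 2 (-0.65, adjusted p = 0.0621, edgeR) or with all 22 libraries in 1 fit (-0.75, adjusted p = 0.0892, edgeR). Cd74 passed without cerebellum WT 1 (-0.98, adjusted p = 0.0309, edgeR), without cerebrum WT 4 (-1.07, adjusted p = 0.0378, edgeR) and with DESeq2 (-0.75, adjusted p = 0.0496, DESeq2).

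Microglia and macrophage markers differed in the direction of Ctss and H2-DMa. All 7 of them (Csf1r, Cx3cr1, Aif1, P2ry12, Tmem119, Adgre1 and C1qa) were called higher in WT cerebrum, with a median log2 fold change of 1.77, and also without cerebellum WT 2 (median 1.85). Of all genes, 24.6% were called higher and 26.4% lower in WT cerebrum. P2ry12, a purinergic receptor of homeostatic microglia, was 37.5 to 47.3 CPM in WT cerebrum and 10.6 to 16.1 CPM in WT cerebellum. Their summed level was 239.6 to 312 CPM and 73.9 to 126 CPM. Of the 4 border macrophage markers (Mrc1, Cd163, Lyve1 and Ms4a7), which mark macrophages of meninges and vessels, 0 were called at an adjusted p under 0.05 and 0 at an unadjusted p under 0.05, and their summed level was 4.56 to 8.91 and 6.64 to 10.9 CPM. Without cerebrum WT 3, 1 of these 4 was called lower in cerebrum. Of the B cell markers 0 of 7 were called between the regions, and 1 had an unadjusted p under 0.05; without cerebellum WT 2, Cd79b was called higher in cerebrum (1.81, adjusted p = 0.0296, edgeR). Of the 7 dendritic cell markers 5 were lower in cerebrum, with a median log2 fold change of -0.76; Flt3 and Zbtb46 were called lower, and Batf3 and Siglech higher. Their summed level was 33.8 to 43.3 CPM in WT cerebrum and 82.9 to 151 CPM in WT cerebellum, the direction of the classical chains between the regions. Within the WT cerebella it went the other way in WT 2, which had the lowest sum (82.9 CPM) and the highest H2-Ab1 (3.93 CPM) and H2-Aa (2.94 CPM). Most of the sum in cerebellum was Zbtb46 (39.8 to 94.0 CPM) and Flt3 (35.6 to 53.5 CPM). Whether Zbtb46 and Flt3 came from dendritic cells in brain was not tested. Itgax, the integrin CD11c, was 2 to 3 counts a cerebrum and 0 to 8 counts a cerebellum library. The part of these cell types in the member values was not tested.

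**Figure D2:**
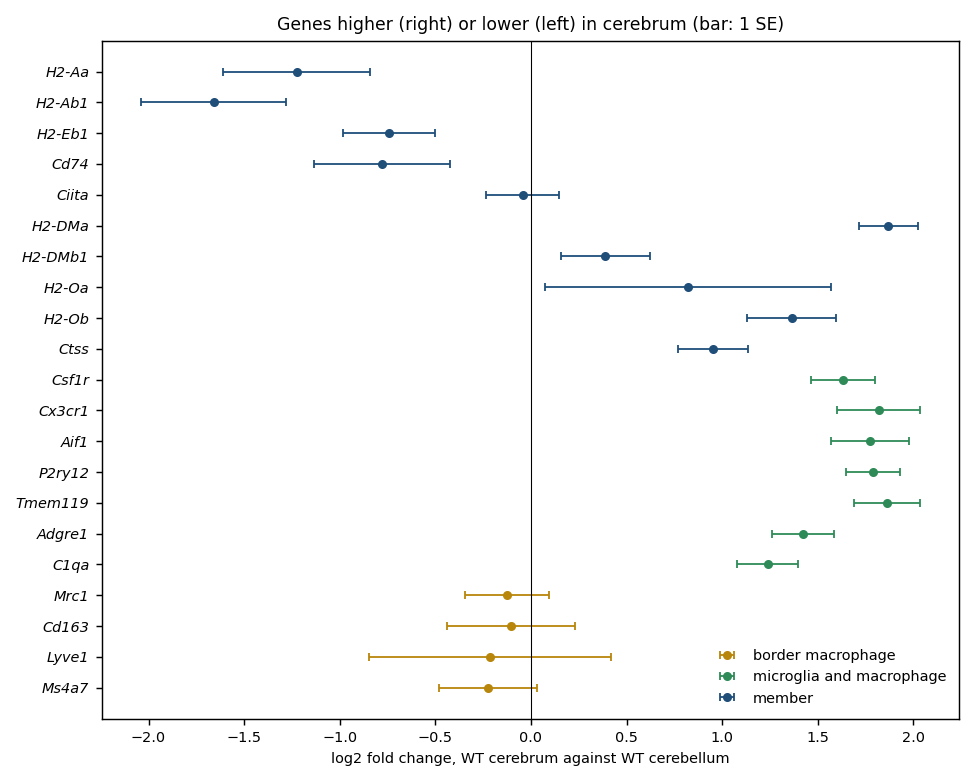
Log2 fold change of WT cerebrum against WT cerebellum for the 10 members, 7 microglia and macrophage markers and 4 border macrophage markers (points are edgeR estimates, bars 1 SE). H2-Aa, H2-Ab1, H2-Eb1 and Cd74 lie left of 0, H2-DMa, H2-Ob and Ctss lie right of it with all 7 microglia and macrophage markers, and the border macrophage markers lie near 0.

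The other genes of the pathway went both ways between thymus and cerebrum. In this comparison 14683 of all 17413 genes tested were called, and 43.4% of genes were called higher in thymus. Of the 7 promoter factors, which assemble on the X and Y boxes, 6 were called higher and 1 lower in WT thymus than in WT cerebrum, with a median log2 fold change of 1.02; Creb1 had the highest level of them, at 242 to 265 CPM in WT thymus and 72.9 to 86.3 CPM in WT cerebrum. Of 7 other endosomal processing genes, 5 were called higher and 2 lower. Ctsl, the cathepsin that cuts the invariant chain in cortical thymic epithelium, was 938 to 1116 CPM in WT thymus and 65.3 to 74.6 CPM in WT cerebrum (log2 fold change 3.90, adjusted p = 1.68e-12, edgeR), while Lgmn, an asparagine endopeptidase, was lower in thymus (-0.98, adjusted p = 1.15e-05, edgeR). Of the 6 genes from the interferon gamma receptor to Ciita, 5 were called higher in thymus and Ifngr2 did not pass (0.19, adjusted p = 0.105, edgeR). Of the 3 genes of surface turnover, Cd83 was called higher in thymus and the ubiquitin ligases Marchf1 and Marchf8, which remove class II from the surface, lower (-1.83 and -1.32).

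In thymus, the organ in which class II selects CD4+ T cells, the comparison of Tol with WT mice asks whether a transgene expressed there changed these genes. Tol was 19.5 to 25.8 CPM in the Tol thymi. The classical chains were close in both genotypes. H2-Aa was 476, 530, 516 and 545 CPM in Tol thymi 1 to 4 against 494, 515, 475 and 504 CPM in WT thymi 1 to 4. H2-Ab1 was 465, 508, 506 and 523 CPM against 458, 513, 450 and 494 CPM. H2-Eb1 was 345, 368, 363 and 395 CPM against 351, 380, 340 and 361 CPM. The groups overlapped for each of the 3, and Tol thymus 1, the most deeply sequenced library, was the lowest Tol value of each. Their log2 fold changes were 0.07, 0.08 and 0.05, with SE of 0.07 each.

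Cd74 was 1140, 1330, 1296 and 1293 CPM in Tol thymi 1 to 4 and Ctss 111, 132, 130 and 147 CPM, against 1121 to 1294 and 107 to 135 CPM in WT thymus. Both overlapped, with log2 fold changes of 0.07 (SE 0.08) and 0.10 (SE 0.10). With offsets for GC content and length, H2-Eb1 (-0.02), Cd74 (-0.01) and Ctss (-0.01) changed sign.

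Ciita was 47.2, 34.8, 38.7 and 35.7 CPM in Tol thymi 1 to 4 against 50.4, 56.3, 43.2 and 54.5 CPM in WT thymi 1 to 4. Tol thymi 2 to 4 lay below all WT values, and Tol thymus 1 lay above WT thymus 3. The log2 fold change was -0.38 (SE 0.10), a level of 0.771 of WT, with an unadjusted p of 0.00237 and an adjusted p of 0.0858 over 16248 genes (edgeR). Without Tol thymus 1 it was -0.46 with an adjusted p of 0.00851 (edgeR), in a fit that called 2978 of 16370 genes. Without each of the other libraries the adjusted p was 0.0690 to 0.235 (edgeR). DESeq2 called Ciita, with an adjusted p of 0.0130, and 7.79% of all genes. With offsets for GC content and length the log2 fold change of Ciita was -0.27 (adjusted p = 0.0913, edgeR).

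H2-Oa went the other way. It was 25.7, 28.9, 26.4 and 28.4 CPM in Tol thymi 1 to 4 against 20.3, 23.5, 24.6 and 21.7 CPM in WT thymi 1 to 4, with all Tol values above all WT values. The log2 fold change was 0.29 (SE 0.09, adjusted p = 0.0957, edgeR), and DESeq2, which called 7.79% of all genes, gave an adjusted p of 0.0400. Of its exon bases, 321 lie opposite the antisense gene BC051537.

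Its partner H2-Ob was 16.0, 15.2, 16.8 and 16.9 CPM in Tol thymi 1 to 4, all below the WT values of 17.2 to 19.2 CPM. The log2 fold change was -0.15 (SE 0.07, adjusted p = 0.204, edgeR). H2-Oa counts per H2-Ob count, a ratio within a library that was chosen after these values were seen and is given with no test, were 1.58 to 1.90 in Tol and 1.06 to 1.43 in WT thymus.

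H2-DMa was 39.5, 46.9, 42.9 and 46.2 CPM in Tol thymi 1 to 4 against 38.5 to 42.5 CPM in WT thymus (log2 fold change 0.13, SE 0.07, adjusted p = 0.316, edgeR). H2-DMb1 was 29.6, 31.6, 33.6 and 33.1 CPM against 25.0 to 29.9 CPM (0.19, SE 0.08, adjusted p = 0.159, edgeR), and Tol thymus 1 alone lay within the WT range. Summed with H2-DMb2, from which it can hardly be told apart by short reads, the log2 fold change was 0.10 (adjusted p = 0.308, edgeR).

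**Figure D3:**
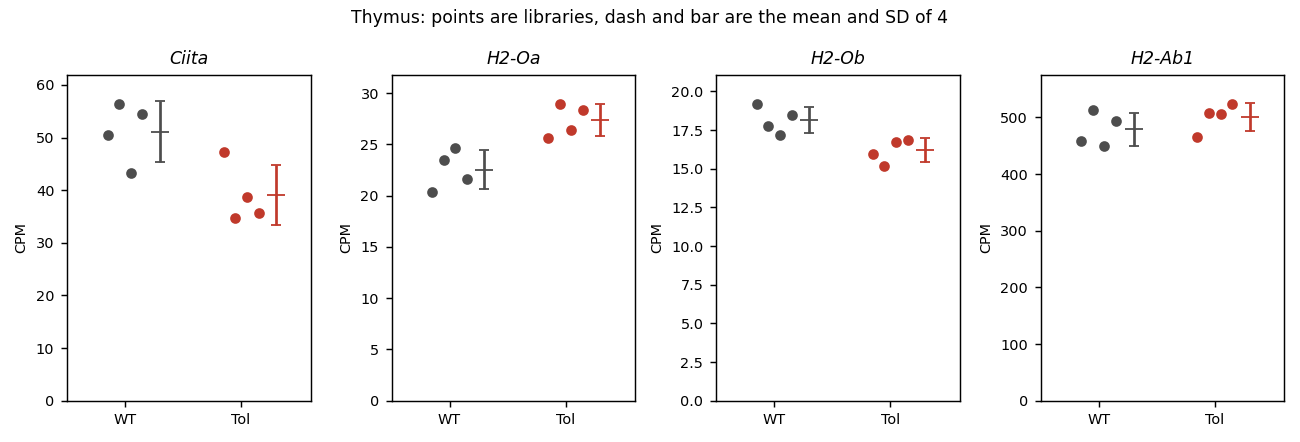
CPM of Ciita, H2-Oa, H2-Ob and H2-Ab1 in each thymus library (points; dash and bar are the mean and SD of 4, grey WT, red Tol), on axes that start at 0. Ciita overlaps in 1 Tol and 1 WT library, H2-Oa is higher and H2-Ob lower in all Tol libraries, and H2-Ab1 overlaps.

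Of the 10 members in thymus, 0 passed the adjusted p of 0.05 in edgeR, as did 0.0985% of all 16248 genes; 4 had an unadjusted p under 0.05, where 24.4% of all genes did, and DESeq2 called 2, and 7.79% of all genes. In Tol thymus 8 members were higher and 2 lower, where 51.4% of all genes were higher, with a median log2 fold change of 0.07 against 0.01 over all genes. H2-Oa and H2-Ob, 2 of the 10, did not overlap between genotypes, and 10.6% of all genes did not. Without Tol thymus 1, 4 members passed (Ciita, H2-DMa, H2-DMb1 and H2-Oa), as did 2978 of all 16370 genes tested. Without each of the other thymus libraries 0 members passed.

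Markers of the cells that carry class II were set beside these values. Of all genes in this comparison, 51.4% were higher in Tol thymus and 24.4% had an unadjusted p under 0.05. Of 7 B cell markers 5 were lower in Tol thymus and 0 were called at the adjusted p, while 3 had an unadjusted p under 0.05; Pax5, a transcription factor of B cells, was between 4.05 and 6.79 CPM in Tol thymus and between 6.65 and 9.68 CPM in WT thymus (log2 fold change -0.57, SE 0.16, adjusted p = 0.0915, edgeR). Of 7 dendritic cell markers 6 were lower and 0 called, 3 of them at an unadjusted p under 0.05; Xcr1, a chemokine receptor of cross-presenting dendritic cells, had a log2 fold change of -0.31 (SE 0.12, adjusted p = 0.155, edgeR). Of 8 thymic epithelium markers 5 were higher and 0 called, and Epcam was 0.25 (SE 0.07, adjusted p = 0.0982, edgeR). The summed levels overlapped between Tol and WT thymus: 67.4 to 74.2 and 68.7 to 96.4 CPM for B cells, 55.6 to 72.1 and 67.7 to 86.9 CPM for dendritic cells, and 1446 to 1569 and 1425 to 1582 CPM for thymic epithelium. The 7 thymocyte markers went both ways, 4 higher and 3 lower in Tol thymus, with a median log2 fold change of 0.07 and 0 called. Their sum also overlapped, with 7179 to 9109 CPM for Tol thymus against 8874 to 10436 CPM for WT thymus. Rag1, a recombinase subunit and 1 of the 3 that were lower, had the lowest p (-0.44, SE 0.12, adjusted p = 0.0927, edgeR). The part of these markers in the member values was not tested.

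No gene of the other pathway lists was called in thymus at the adjusted p of 0.05 by edgeR. Of the 7 promoter factors 3 were higher and 4 lower in Tol, with a median log2 fold change of -0.02. An unadjusted p under 0.05 was found for 3 of 7, where 24.4% of all genes had it, all 3 lower in Tol. They were Creb1 (-0.29, SE 0.08, adjusted p = 0.0927, edgeR), a factor of the X2 element, Rfx5 (-0.23) of the X box complex and Nfya (-0.23) of the Y box complex. Of the 6 interferon gamma genes 3 were higher and 3 lower, with a median of 0.01. The receptor kinases Jak2 (-0.28, SE 0.06, adjusted p = 0.0733, edgeR) and Jak1 (-0.23) were the 2 of 6 with an unadjusted p under 0.05. Jak2 was at most 131 CPM in Tol thymus and at least 137 CPM in WT thymus and did not overlap. In all, 2 of the 6 interferon gamma genes and 2 of the 7 promoter factors did not overlap, all lower in Tol, where 10.6% of all genes did not overlap. Cd83 was 0.13 (adjusted p = 0.168, edgeR), Sppl2a, a protease that clears the last piece of the invariant chain, -0.12 (adjusted p = 0.191, edgeR) and H2-DMb2 0.04 (adjusted p = 0.717, edgeR).

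The members varied together within the thymus, apart from Ciita, H2-Oa and H2-Ob. Over the 8 thymus libraries, which share their depth and scaling with every gene compared, the 6 pairs among H2-Aa, H2-Ab1, H2-Eb1 and Cd74 had Pearson correlations of log2(CPM + 1) from 0.83 to 0.94. With the mean of these 4, H2-DMa had 0.93, Ctss 0.87 and H2-DMb1 0.81, H2-Oa 0.47, H2-Ob -0.21 and Ciita -0.37. H2-Oa had -0.90 with H2-Ob and -0.86 with Ciita, and Ciita had 0.71 with H2-Ob. Among the 5 genes outside the members most like that mean, of 11260 genes with a mean of at least 5 CPM, were Cst3 (0.96), Clec12a (0.96), Cd63 (0.95) and F11r (0.95). These are descriptions over 8 points that pool Tol and WT libraries, so that differences between the genotypes enter them.

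In cerebrum, where Tol was 148 to 174 CPM, the members were low and scattered. H2-Aa was 1.51, 0.859, 0.839 and 1.40 CPM in Tol cerebra 1 to 4 against 1.62, 0.651, 0.361 and 0.535 CPM in WT cerebra 1 to 4, or 6 to 31 counts a library, and the groups overlapped (log2 fold change 0.51, SE 0.45, adjusted p = 0.762, edgeR). H2-Ab1 was 1.22, 0.806, 0.444 and 0.698 CPM in Tol cerebra against 0.535 to 1.08 CPM (0.20, SE 0.37). Cd74 was 4.43, 2.36, 2.07 and 3.65 CPM in Tol cerebra against 1.63 to 3.98 CPM (0.27, SE 0.35). Ctss, the best measured with 804 to 1069 counts a library, was 52.1, 53.8, 46.8 and 62.4 CPM in Tol against 48.4 to 61.4 CPM in WT cerebrum (-0.02, SE 0.10, adjusted p = 0.960, edgeR). These 4 overlapped between genotypes.

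H2-DMa was 9.94, 6.66, 6.86 and 7.29 CPM in Tol cerebra 1 to 4 against 8.43 to 11.8 CPM in WT (-0.27, SE 0.17, adjusted p = 0.651, edgeR), the lowest p among the members. H2-Eb1 was 0.05 (SE 0.38), Ciita 0.15 (SE 0.22), H2-DMb1 -0.10 (SE 0.24) and H2-Ob -0.37 (SE 0.46). H2-Oa, at 2 to 8 counts in Tol and 0 to 10 in WT cerebra, did not pass the filter on low counts. Of the 9 members tested 5 were higher and 4 lower, where 48.6% of genes were higher, with a median of 0.05 against -0.0049 over all genes; edgeR called 0 members and 0% of 15596 genes, DESeq2 called 0 members and 1.18% of genes, 0 members had an unadjusted p under 0.05 in edgeR, where 9.66% of genes did, and 0 did not overlap, where 6.42% of genes did not. Leaving out WT 3 and Tol 4, the libraries high in Cd4, 0 of 9 were called and H2-Aa was 0.17; without Tol 2 or without WT 4, the libraries higher in Gabra6, 0 were called and H2-Aa was 0.63 and 0.36.

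The microglia and macrophage markers were 237 to 295 CPM in sum in Tol and 239.6 to 312 CPM in WT cerebrum, and 0 of 7 were called; Tmem119, a microglial membrane protein, had the lowest p (-0.24, SE 0.12, adjusted p = 0.540, edgeR). Over the 8 cerebrum libraries of both genotypes the pairs among the classical chains and Cd74 had correlations from 0.06 to 0.79, and Ctss had -0.29 with their mean. The 5 genes most like that mean, among 12039 genes, were Aste1 (0.97), Cpsf7 (0.95), Dync1i2 (0.95), Gjb2 (0.94) and Slc13a4 (0.94).

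In cerebellum, with 2 Tol libraries of which 1 stood apart, H2-Aa was 3.06 CPM in Tol 1 and 5.47 CPM in Tol 2 against 1.41, 2.94, 1.25 and 2.11 CPM in WT cerebella 1 to 4. Both Tol values lay above all WT values, with Tol 1 close to WT 2. The log2 fold change was 1.15 (SE 0.44, unadjusted p = 0.0387, adjusted p = 0.957, edgeR), and without Tol 2 it was 0.64. Cd74 was 6.96 and 13.6 CPM against 2.52, 7.21, 2.85 and 5.44 CPM (1.20, SE 0.52, adjusted p = 0.957, edgeR), and 0.60 without Tol 2.

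The remaining members that were tested overlapped between genotypes. H2-Ab1 was 2.68 and 4.41 CPM in Tol 1 and Tol 2 (log2 fold change 0.67, and 0.24 without Tol 2), and H2-Eb1 was 1.43 and 4.57 CPM (0.87, and -0.24 without Tol 2). Ctss was 24.1 and 46.1 CPM (0.31, and -0.26 without Tol 2), and its WT value in the library low in cerebellar markers was 42.4 CPM against 21.9 to 25.5 CPM in the other 3. H2-DMa was 0.34, H2-DMb1 0.58 and Ciita -0.05, and these 3 also changed sign without Tol 2 (-0.17, -0.09 and 0.31). H2-Oa and H2-Ob, at 2 to 9 counts a library, did not pass the filter; H2-Ob was 0.335 and 0.367 CPM in Tol against 0.156 to 0.302 CPM in WT cerebella.

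Of the 8 members tested in cerebellum 0 were called by edgeR and by DESeq2, which called 0% and 0.06% of 16662 genes; 1 had an unadjusted p under 0.05, where 3.16% of genes did, and 1 member did not overlap, where 10.5% of genes did not. In Tol 7 were higher, where 51.8% of genes were, with a median of 0.62, against 0.01 over all genes. Without Tol 2 the median was 0.07 with 4 of 8 higher, and without both Tol 2 and WT 2 it was 0.14 with 6 of 8 higher. Markers moved with Tol 2 and WT 2: Csf1r, the receptor that microglia depend on, was 59.2 and 49.9 CPM in these 2 libraries against 29.2 to 32.1 CPM in the other 4. The 7 microglia and macrophage markers were all higher in Tol (median 0.44), 2 of 7 were without Tol 2 and 5 of 7 without both Tol 2 and WT 2, and 0 were called in any of these. The summed B cell markers were 6.66 CPM in Tol 2 against 1.68 CPM in Tol 1, with WT cerebella at 1.91 to 3.42 CPM, and the summed dendritic cell markers were 43.7 CPM in Tol 2 against 161 CPM in Tol 1, with WT at 82.9 to 151 CPM. The summed cerebellum markers went the same way as the dendritic cell sum, with 176 CPM in Tol 2 against 3391 CPM in Tol 1. The 4 cerebellum markers were all lower in Tol (median -0.57) and all higher without Tol 2 (median 0.36) or without both (median 0.16). Of the 4 border macrophage markers 3 were higher and 1 lower in Tol (median 0.56). Only 1 of 4 was higher without Tol 2 (median -0.095) or without both (median -0.21). Mrc1, a receptor of border macrophages, had the lowest p of the 4. It was 7.80 and 8.90 CPM in Tol against 3.45 to 5.64 CPM in WT cerebella (0.89, SE 0.24, adjusted p = 0.957, edgeR). The part of these cell types in the member values was not tested.

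**Figure D4:**
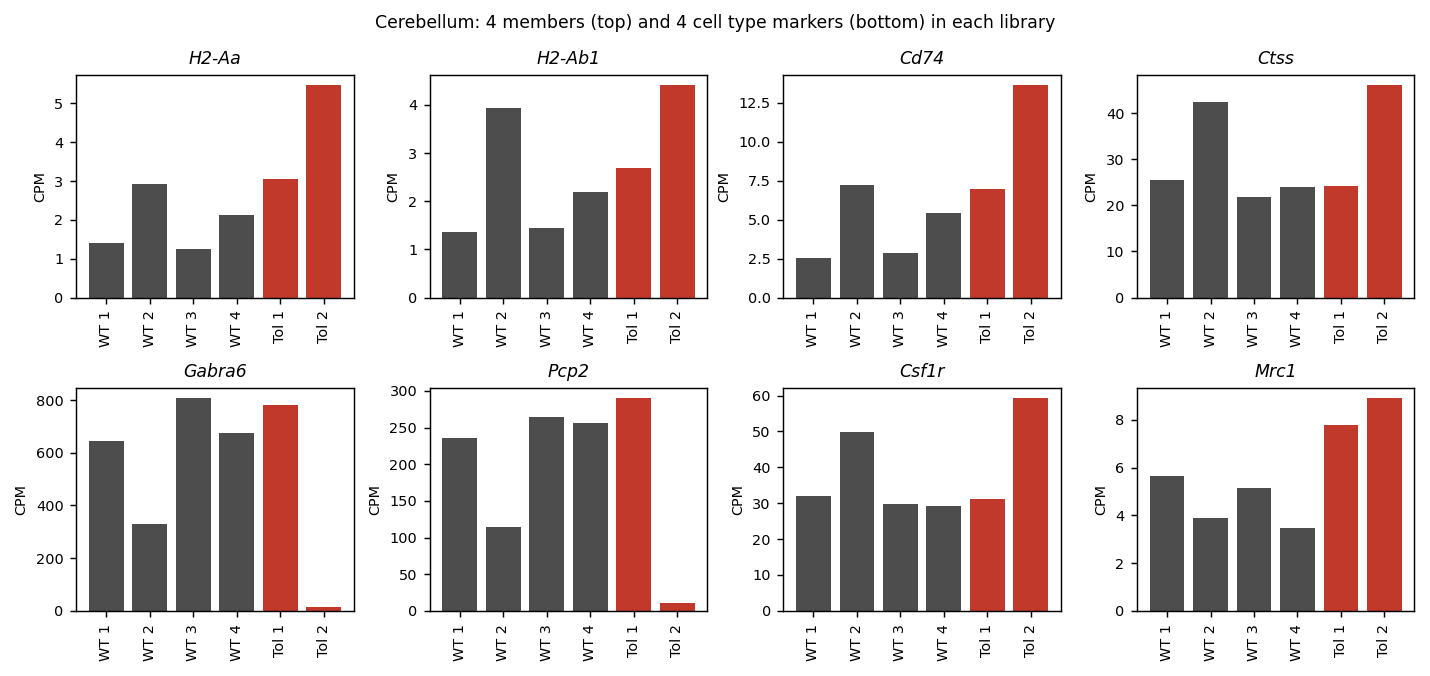
CPM in each cerebellum library (bars, grey WT, red Tol) for H2-Aa, H2-Ab1, Cd74 and Ctss in the upper row and for the markers Gabra6 (granule cells), Pcp2 (Purkinje cells), Csf1r (microglia) and Mrc1 (border macrophages) in the lower row. Tol 2 and WT 2, which are lowest in Gabra6 and Pcp2, are highest in Ctss and Csf1r.

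**Figure D5:**
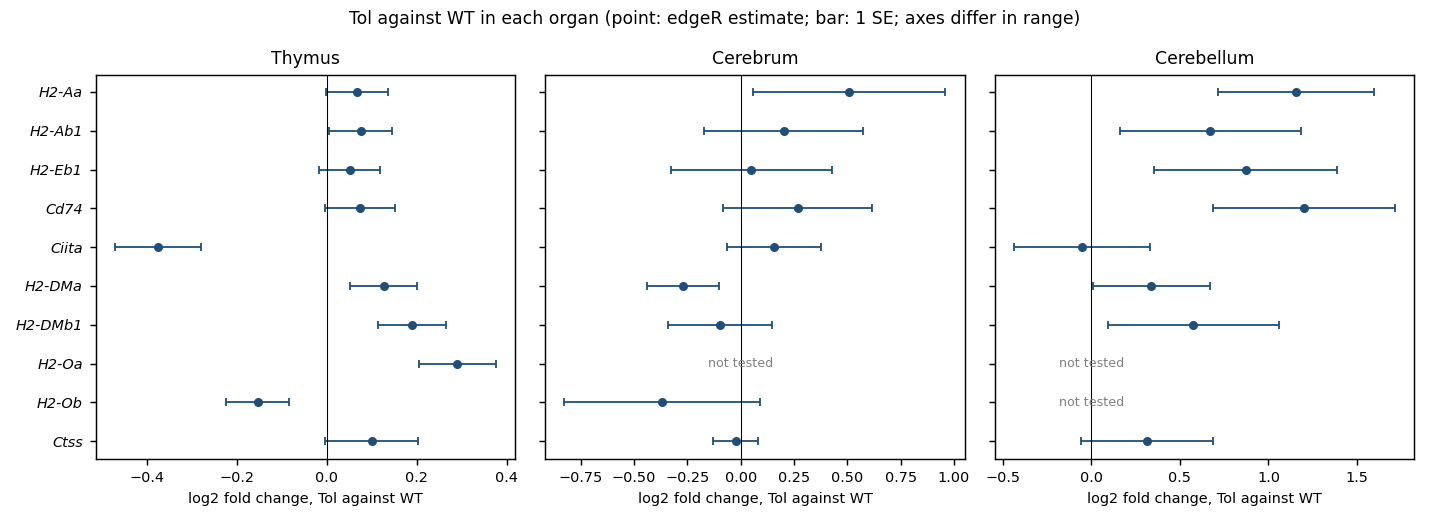
Log2 fold change of Tol against WT for each member in thymus, cerebrum and cerebellum (points are edgeR estimates, bars 1 SE; the axes of the 3 panels differ in range). The thymus estimates run from -0.38 for Ciita to 0.29 for H2-Oa, and the brain estimates have wider bars.

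Whether the effect of Tol differed between thymus and cerebrum was tested in 1 model of both organs. For 0 of 10 members did it pass the adjusted p of 0.05 in edgeR, as for 0.107% of all 17774 genes, and DESeq2 called 0, and 2.78% of all genes; 2 members had an unadjusted p under 0.05, where 16.5% of genes did. The difference, cerebrum minus thymus, was 0.52 for Ciita (SE 0.23, adjusted p = 0.274, edgeR) and -0.40 for H2-DMa (SE 0.18, adjusted p = 0.277, edgeR). For the classical chains and Cd74 it ranged from 0.0025 to 0.41.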

How the data were processed

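Libraries were made from poly(A) RNA with the TruSeq Stranded mRNA kit and read as single 65-base reads on a HiSeq instrument. The authors deposited estimated counts per gene for each organ, for which Salmon 0.14.1 quantified reads against GRCm38 transcripts plus that of Tol, and their notes also name edgeR 3.9. How transcripts were summed to genes and the strand setting are not given in the sources used here. The deposited estimated counts are whole numbers and were used as such. Tol columns are headed MRT in the tables and were matched to the Tol labels by number. Ensembl identifiers were matched to GENCODE M21 symbols for 34465 of 34585 entries, and 74 of 75 symbols of the other lists matched. The members and lists were chosen with earlier results of these data known.

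Per organ, genes passing filterByExpr were fitted with edgeR 4.0.16 (R 4.3.3; TMM scaling, quasi-likelihood test), Tol against WT, and p-values were adjusted over all genes by the Benjamini-Hochberg method at 0.05. WT organs were compared in 1 fit of the 12 WT libraries, and the difference of the Tol effects in 1 fit of thymus and cerebrum. Printed CPM were scaled by TMM over all 22 libraries and divided by merged exon length where genes are compared. The steps were tested on simulated data. All members are named with their values; of each other list, genes past the adjusted p, the gene with the lowest p in each organ and the genes with the highest level were named, and of the likeness to the mean log2(CPM + 1) of H2-Aa, H2-Ab1, H2-Eb1 and Cd74 the 5 highest genes with at least 5 CPM. Ctsl, Lgmn, Cd83, Marchf1, Marchf8, Ifngr2, Rfx5, Nfya, Jak1, P2ry12, Csf1r, Itgax and Cd79b were added after their values were seen in some comparisons. Alternatives were DESeq2 1.42.0 and its size factors, no filter, robust moderation, a minimum of 10 counts per library, the replicate number as a block, all 22 libraries in 1 fit, offsets for GC content and length, H2-DMb1 summed with H2-DMb2, and leaving out each library. The libraries left out for their markers and the longest transcript as length were chosen after seeing the data. Of the genes these rules name, 1 is not reported here.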

Additional observations from a re-analysis of the deposited data

Results flagged for a closer look

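Of 50 sets of 4 libraries of 1 member tested for a single library far from the rest, 4 had one, where chance gives about 1 in 20. H2-Ab1 was 1.0809 CPM in WT cerebrum 1 against 0.5348 to 0.5859 CPM in the other 3, or 20 counts against 9 in each. H2-DMa was 11.7652 CPM in WT cerebrum 4 against 8.433 to 8.4848 CPM. H2-Oa was 0.1552 CPM in Tol cerebrum 4 against 0.376 to 0.3949 CPM, and 0.2341 CPM in WT cerebellum 3 against 0.0855 to 0.0864 CPM; both rest on 2 to 8 counts a library.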

How the results depend on the processing

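With DESeq2 the members called in thymus between genotypes were 2 in place of 0, and leaving out 1 library gave 0 to 4. With at least 10 counts in every library, 6 members were called between WT thymus and WT cerebrum, 6 between WT thymus and WT cerebellum and 3 between the WT brain regions, since fewer members were then tested; leaving out 1 library gave 4 to 7 in the last. With offsets for GC content and length, the thymus log2 fold changes of H2-Eb1 (-0.022), Cd74 (-0.012) and Ctss (-0.0062) reversed. Without cerebellum Tol 2 and WT 2, H2-Eb1 (-0.027), Ciita (0.21) and H2-DMa (-0.046) reversed, and without a filter the difference of Tol effects for H2-Eb1 was -0.00074. Leaving out 1 library, cerebrum values ranged from -0.097 to 0.52 for H2-Ab1, -0.15 to 0.31 for H2-Eb1, -0.22 to 0.060 for H2-DMb1 and -0.11 to 0.040 for Ctss. Cerebellum values ranged from -0.24 to 1.49 for H2-Eb1, -0.54 to 0.31 for Ciita, -0.17 to 0.71 for H2-DMa, -0.092 to 1.03 for H2-DMb1 and -0.26 to 0.72 for Ctss. The difference of Tol effects ranged from -0.20 to 0.27 for H2-Eb1, -0.20 to 0.46 for H2-Ab1, -0.068 to 0.46 for Cd74, -0.59 to 0.012 for H2-Ob and -0.078 to 1.49 for H2-Oa, and cerebrum against cerebellum from -0.35 to 1.36 for H2-Oa and -0.14 to 0.094 for Ciita. Apart from settings that leave out libraries or remove members, the cause was not tested.

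Same-numbered libraries of different groups had correlations of -0.542 to 0.722. Both ends were Tol and WT libraries of 1 organ (cerebrum 3 and cerebellum 2). Between WT organs the values ran from -0.113 to 0.238. Libraries of unlike number were not compared, so these values cannot decide whether the numbers link libraries across organs. In fits with a replicate block Ciita in cerebellum was 0.20, no count of members called changed, and 5 genes of the whole table were called in thymus. Over all genes, thymus calls were 16, but 1266 with DESeq2, 130 without a filter, 85 with at least 10 counts, 38 with robust moderation, 29 with all 22 libraries, 55 with the offsets, and 0 to 2978 on leaving out 1 library (2978 without Tol 1). Cerebrum calls were 0, but 184 with DESeq2, 25 with all 22 libraries and up to 7 on leaving out 1 library; cerebellum calls were 0, 10 with DESeq2 and up to 2. The difference of Tol effects had 19 calls, 495 with DESeq2, 48 with at least 10 counts, 0 with the block, and 2 to 1116 on leaving out 1 library (1116 without thymus Tol 1). In brain the depth gave 0 to 31 counts a library for H2-Aa, H2-Oa and H2-Ob in cerebrum, which limits what could be detected there.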
